A study of Mus musculus with 6 samples.

Results

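The transcription factor gene *Atf4*, 5 of its stress targets (*Ddit3*, *Asns*, *Chac1*, *Trib3* and *Sesn2*) and 4 enzymes of serine and one-carbon metabolism (*Psat1*, *Phgdh*, *Shmt2* and *Mthfd2*) were examined in regulatory T cells (Tregs) sorted from mouse melanomas. The genes were chosen by symbol, for their known roles, and all 10 were among the 12153 genes with values. RNA-Seq was performed on 6 libraries from B16.F10 tumors, 15 days after implantation of this melanoma cell line. The 3 control libraries came from mice with floxed *Nr3c1* alleles and no Cre named in the labels (headed WT in the deposited table), and the 3 Nr3c1Foxp3-Cre libraries came from mice that carried the same floxed alleles plus Foxp3-YFP/Cre. *Nr3c1* encodes the glucocorticoid receptor (GR), Cre is driven by *Foxp3*, the Treg lineage factor, and the comparison asked how Tregs in a tumor differed when they lacked GR. All 6 samples were enriched for infiltrating cells on Percoll before sorting. The study's methods give a sort on Foxp3-YFP and the labels give one on CD4 and CD25, so a difference in sorting between the groups cannot be told apart from genotype. Animal age, and whether a library came from 1 mouse or several, were not given in the sources used here, and p-values therefore measure the spread between these libraries.

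ATF4 is the effector of the integrated stress response. Kinases that sense amino acid shortage, unfolded protein in the endoplasmic reticulum (ER), double-stranded RNA or heme deficiency phosphorylate the initiation factor eIF2α, which lowers general translation while the *Atf4* mRNA is translated more efficiently. ATF4 protein then dimerizes with C/EBP or other bZIP partners and induces genes for amino acid synthesis, uptake and charging, among them the enzymes that make serine and feed its carbon into mitochondrial folate metabolism, on which proliferating T cells draw. Because *Atf4* is controlled largely at translation, its mRNA is an incomplete measure of the pathway.

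The values were log2 CPM, the log of normalized read counts scaled to a common library total, after quantile normalization, so a difference of 1 is a doubling, and sequencing depth is unknown. *Nr3c1* was measured at 7.15, 7.59 and 6.88 log2 CPM in control libraries 1 to 3 and at 6.14, 5.45 and 5.90 in Nr3c1Foxp3-Cre libraries 1 to 3, without overlap, and its log2 fold change was -1.38 ± 0.21 (SE, limma adjusted p = 0.120, n = 3 per group). *Tsc22d3*, a GR target that encodes GILZ, fell by 1.56 ± 0.16 on the log2 scale (limma adjusted p = 0.0342), a call that was lost without control 3 (adjusted p = 0.0712) or without Nr3c1Foxp3-Cre 1, 2 or 3 (adjusted p = 0.0639, 0.1401 and 0.154) while the direction held. All 12 Treg markers had values, with *Il2ra* at 8.20 to 8.75 and *Ctla4* at 8.95 to 10.02 log2 CPM, but *Foxp3* itself was at only 3.39 to 4.47. All 9 melanoma cell markers were also present, and their summed level ranged from 4584 to 12284 CPM in the controls and from 5093 to 12542 CPM in Nr3c1Foxp3-Cre. In bulk samples such as these, fewer cells of a type and less RNA per cell cannot be told apart.

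No ATF4 or serine gene differed detectably between GR-deficient and control Tregs, whereas 3 stress targets differed more than 2-fold between libraries of a single genotype. The fitted log2 fold changes of the 10 genes ranged from 0.0043 for *Psat1* to 0.37 for *Trib3*, with a median of 0.12, against a median of -0.0014 over all genes. By limma, 0 of the 10 genes passed an adjusted p of 0.05, against 0.0576% of all genes, and 0 of the 10 had an unadjusted p under 0.05, against 3.26%. In 0 of the 10 genes did the 3 libraries of one genotype lie wholly above those of the other, which was the case for 7.41% of all genes. The adjusted p was 1.0 for each of the 10, and exact two-sided permutation tests, which cannot go below 0.1 with 3 against 3, gave p from 0.5 to 1.0.

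**Figure D1:**
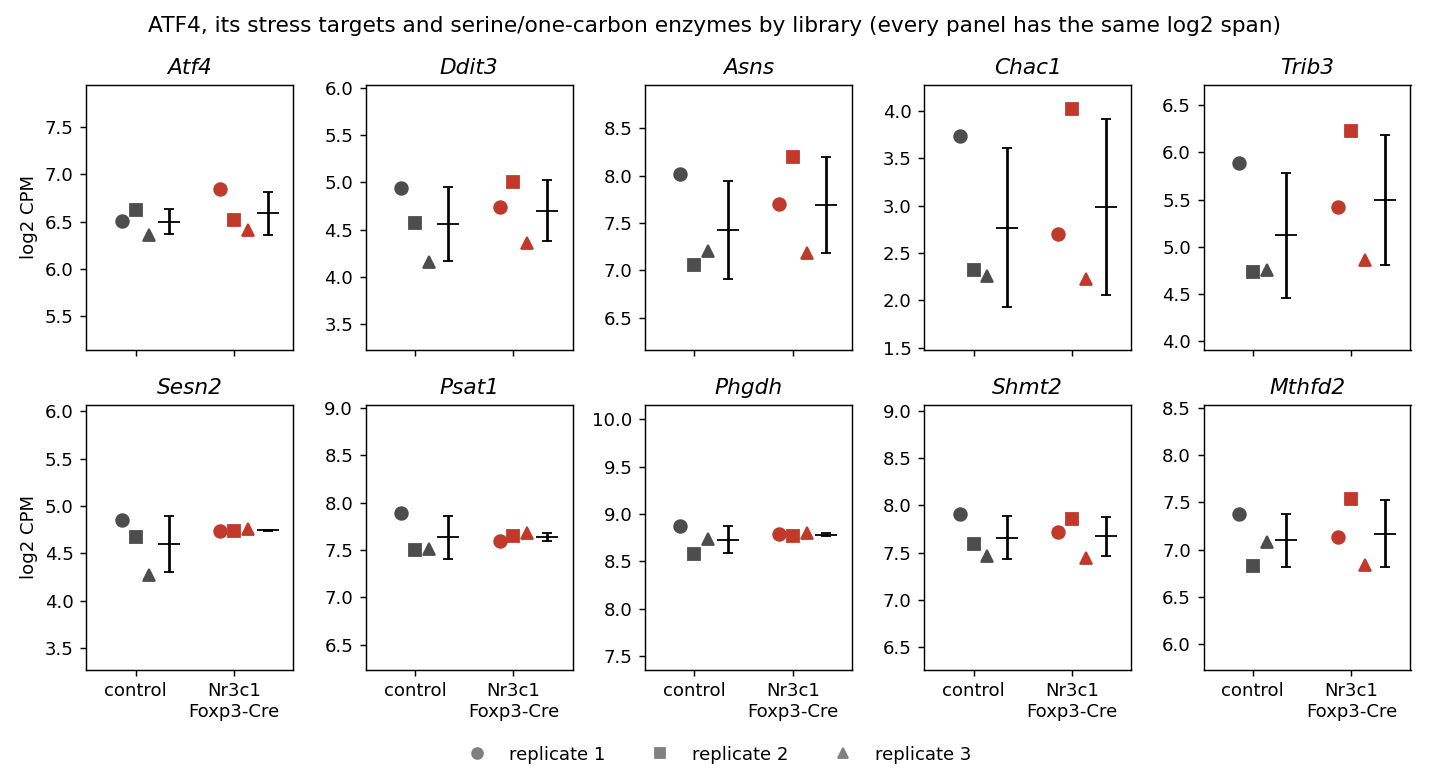
Level of each of the 10 genes in log2 CPM (y axis) in the 3 control and the 3 Nr3c1Foxp3-Cre libraries, with points for libraries (shape gives the replicate number), horizontal lines for group means and bars for ± 1 SD. The groups overlap for every gene, and *Chac1* spans 2.22 to 4.02 while *Phgdh* spans 8.58 to 8.87.

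*Atf4* (ENSMUSG00000042406.8, chr15:80255184-80257541, mm10) encodes the factor itself. It was measured at 6.51, 6.63 and 6.36 log2 CPM in control libraries 1 to 3 and at 6.84, 6.52 and 6.41 in Nr3c1Foxp3-Cre libraries 1 to 3. The highest value was in Nr3c1Foxp3-Cre 1 and the remaining 5 libraries lay close together, with both other Nr3c1Foxp3-Cre libraries inside the control range. The difference was 0.09 ± 0.14 (SE), with a 95% interval of 0.863-fold to 1.32-fold. *Ddit3* (chr10:127290774-127296288) encodes CHOP, a bZIP factor that ATF4 induces under prolonged stress. It was measured at 4.95, 4.57 and 4.16 log2 CPM in the controls and at 4.74, 5.002 and 4.36 in Nr3c1Foxp3-Cre. The high and low libraries of *Ddit3* were thus split across both genotypes, and the difference was 0.14 ± 0.24 (SE). The *Ddit3* row joins the identifiers ENSMUSG00000025408.15 and ENSMUSG00000116429.1, which overlap, and the gene's end overlaps *Mars* on the other strand, whose reads cannot be told apart where counting ignores strand.

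*Asns*, *Trib3* and *Chac1* stood apart from the other genes by their spread. *Asns* (ENSMUSG00000029752.12, chr6:7675169-7693254), which encodes asparagine synthetase, was measured at 8.01, 7.05 and 7.20 log2 CPM in the controls and at 7.70, 8.20 and 7.18 in Nr3c1Foxp3-Cre. *Trib3* (ENSMUSG00000032715.9, chr2:152337422-152344032), a pseudokinase that dampens ATF4 and CHOP activity, was measured at 5.88, 4.73 and 4.76 in the controls and at 5.42, 6.22 and 4.86 in Nr3c1Foxp3-Cre. *Chac1* (ENSMUSG00000027313.3, chr2:119351229-119354381), which encodes an enzyme that degrades glutathione, was measured at 3.73, 2.32 and 2.26 and at 2.71, 4.02 and 2.22. For each of the 3 genes the highest libraries were control 1 and Nr3c1Foxp3-Cre 2, one of each genotype, and control 2, control 3 and Nr3c1Foxp3-Cre 3 were low. From the lowest to the highest library the level differed 3.47-fold for *Chac1*, 2.81-fold for *Trib3* and 2.21-fold for *Asns*. The differences between genotypes were smaller than this spread, at 0.27 ± 0.29 for *Asns*, 0.37 ± 0.38 for *Trib3* and 0.21 ± 0.52 for *Chac1* (log2 fold change ± SE). The 95% interval for *Chac1* ran from 0.514-fold to 2.61-fold and that for *Trib3* from 0.719-fold to 2.34-fold, so changes of that size were not detectable in 6 libraries.

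Of the 10 genes, these 3 were also the ones with the core of the C/EBP-ATF response element, the composite site that ATF4 dimers bind, near their start. Whether the core goes with wide spread was not tested. The core was searched as TGATGNAA on both strands, from 250 bases before to 50 after each transcript start in RefSeq (GRCm38.p6), and all 10 genes had a window. It was found for 3 of the 10 genes, against 4.51% of all genes with a window (3.97% of all windows). The stretches around the match are shown because they mark which ATF4 targets carry it, read 5′ to 3′ on the strand of the gene, with the matched bases in capitals.
*Asns*, chr6:7693214-7693243, minus strand: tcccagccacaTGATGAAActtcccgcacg
*Trib3*, chr2:152344028-152344057, minus strand: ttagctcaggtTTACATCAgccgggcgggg
*Chac1*, chr2:119350999-119351106, plus strand: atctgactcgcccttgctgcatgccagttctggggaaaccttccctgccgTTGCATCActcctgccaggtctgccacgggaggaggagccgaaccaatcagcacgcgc

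The match began 23 bases before the RefSeq start of *Asns*, within the first exon that GENCODE M21 annotates, and 193 bases before that of *Chac1*. In *Trib3* it began at the 15th base after the RefSeq start, which is upstream of the GENCODE start. The matches of *Trib3* and *Chac1* were on the reverse strand. The glucocorticoid response element half-site, searched as AGAACA on both strands, was found for *Asns* alone among the 10, 141 bases before the start. It was found for 21.3% of all genes with a window (19.0% of all windows). A match describes letters in a window and is not a bound site, and the absence of a match in this window says nothing about a site elsewhere. Among other lists of genes, the C/EBP-ATF core was found for 5 of 17 other ATF4 targets with a window, 5 of 12 aminoacyl-tRNA synthetases and 0 of 19 other serine, glycine and one-carbon enzymes.

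*Sesn2* (ENSMUSG00000028893.8, chr4:132492032-132510501) encodes Sestrin 2, which restrains mTORC1 when leucine is scarce. It was measured at 4.85, 4.68 and 4.27 log2 CPM in the controls and at 4.73, 4.74 and 4.75 in Nr3c1Foxp3-Cre. The Nr3c1Foxp3-Cre libraries were nearly equal and lay inside the control range, which was widened by control 3. The difference was 0.14 ± 0.18 (SE), with a 95% interval of 0.837-fold to 1.45-fold.

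*Phgdh* and *Psat1*, for cytosolic enzymes that make serine, were abundant and varied more among the controls than among the Nr3c1Foxp3-Cre libraries. *Phgdh* (ENSMUSG00000053398.11, chr3:98313170-98339990) encodes phosphoglycerate dehydrogenase, the first enzyme of serine synthesis, and was measured at 8.87, 8.58 and 8.73 log2 CPM in the controls and at 8.79, 8.76 and 8.80 in Nr3c1Foxp3-Cre. *Psat1* (ENSMUSG00000024640.9, chr19:15904678-15947337) encodes the aminotransferase that acts next, and was measured at 7.90, 7.50 and 7.51 and at 7.59, 7.64 and 7.68. In both genes the highest and the lowest library were controls, and the Nr3c1Foxp3-Cre libraries lay between them. The differences were 0.05 ± 0.10 for *Phgdh* and 0.0043 ± 0.12 for *Psat1* (log2 fold change ± SE), and their 95% intervals reached at most 1.21-fold in either gene. Reads of *Phgdh* may be shared with its annotated pseudogene copy.

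*Shmt2* and *Mthfd2* encode the mitochondrial enzymes that take the carbon of serine into the folate cycle. *Shmt2* (ENSMUSG00000025403.5, chr10:127517123-127522444) was measured at 7.91, 7.59 and 7.47 log2 CPM in the controls and at 7.72, 7.85 and 7.45 in Nr3c1Foxp3-Cre. *Mthfd2* (ENSMUSG00000005667.8, chr6:83305691-83325908) was measured at 7.38, 6.83 and 7.08 and at 7.13, 7.54 and 6.84. Both genes were highest in control 1 and Nr3c1Foxp3-Cre 2, as the variable stress targets were, but over a narrower range of 1.38-fold for *Shmt2* and 1.64-fold for *Mthfd2*. The genotypes differed by 0.02 ± 0.14 and 0.07 ± 0.19 (log2 fold change ± SE), less than the spread within either group.

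**Figure D2:**
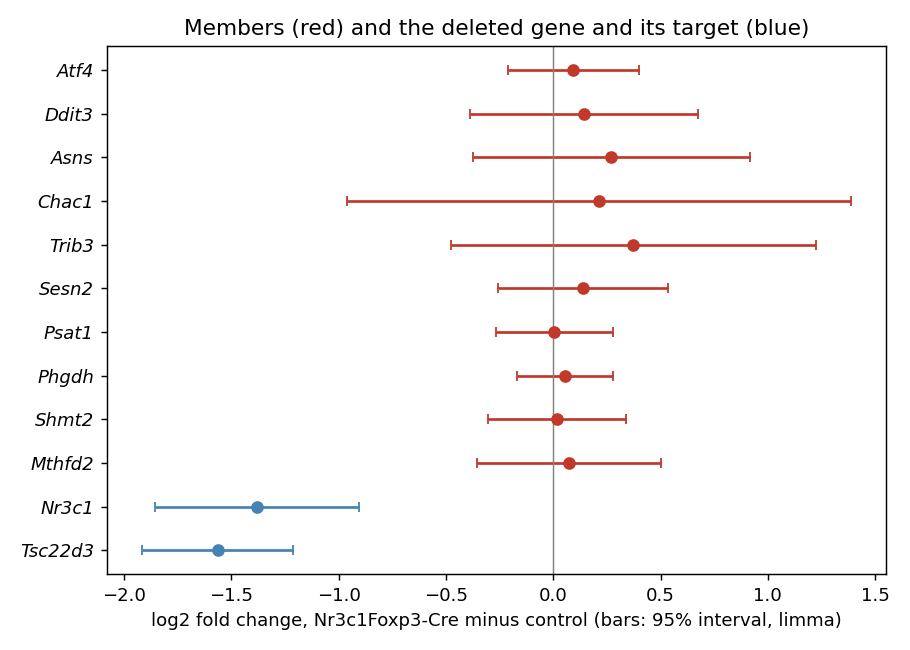
Log2 fold change (x axis, Nr3c1Foxp3-Cre minus control) of the 10 genes in red and of *Nr3c1* and *Tsc22d3* in blue, with points for the limma estimate and bars for its 95% interval. The intervals of the 10 genes include 0, and those of *Nr3c1* and *Tsc22d3* lie below it.

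Per kilobase of annotated exon, *Phgdh* was the most abundant of the 10 genes, with a control mean of 7.41 log2 CPM per kb ± 0.14 (SD, n = 3). It was followed by *Shmt2* at 6.02 ± 0.23, *Asns* at 5.97 ± 0.52, *Psat1* at 5.55 ± 0.23, *Mthfd2* at 5.30 ± 0.28 and *Atf4* at 5.26 ± 0.13. From *Shmt2* to *Atf4*, neighbours in this order differed by less than the larger of their SDs. *Trib3* at 4.04 ± 0.66 and *Ddit3* at 3.78 ± 0.39 did not differ from each other beyond theirs, and the same held for *Sesn2* at 2.80 ± 0.30 and *Chac1* at 2.06 ± 0.84, the lowest of the 10. The order in Nr3c1Foxp3-Cre differed only in that *Asns*, at 6.24 ± 0.51, stood above *Shmt2*, at 6.04 ± 0.21.

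The spread of each gene within its genotypes was compared with that of genes of like level, those whose mean lay within 0.5 log2 CPM of its own. The pooled SD of *Trib3*, 0.672, exceeded that of 98.8% of 2217 such genes, that of *Asns*, 0.512, exceeded 98.6% of 1031 and that of *Chac1*, 0.884, exceeded 97.5% of 1240. *Mthfd2* was at 93.1%, *Ddit3* at 86.8% and *Shmt2* at 82.9%. *Atf4* at 70.5%, *Psat1* at 65.6%, *Sesn2* at 50.3% and *Phgdh* at 29.9% lay nearer the middle or below it. Wide spread was thus clearest for 3 of the 5 stress targets, followed by *Mthfd2*, which had no C/EBP-ATF core in its window. *Atf4* mRNA and the serine synthesis enzymes *Phgdh* and *Psat1* did not share it.

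**Figure D3:**
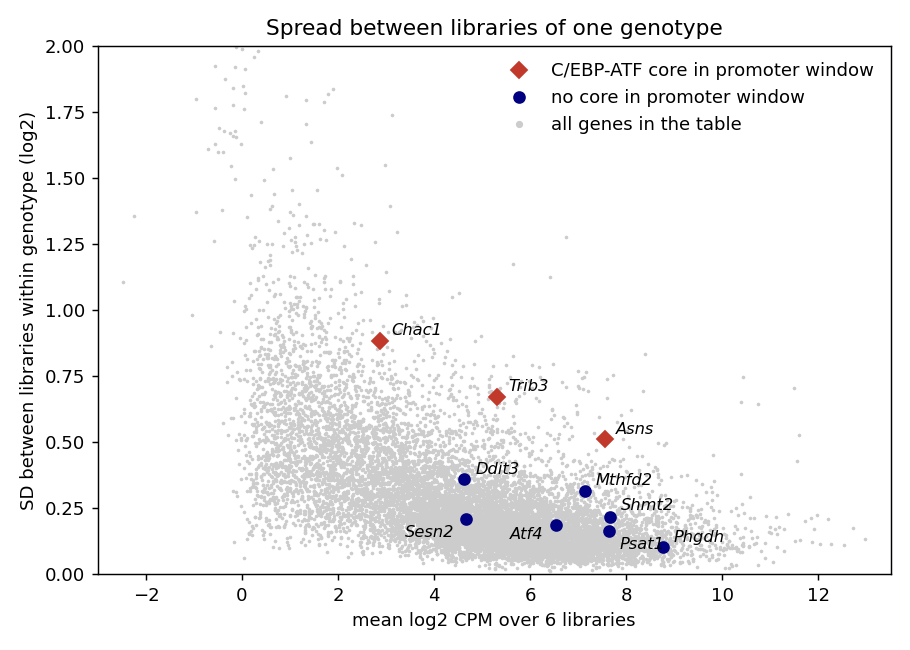
Pooled within-genotype SD (y axis, log2 CPM) against mean level (x axis, log2 CPM) for all genes in grey and the 10 genes as red diamonds (C/EBP-ATF core in the promoter window) or blue points (no core), with 22 genes outside the axes. *Trib3*, *Asns* and *Chac1* lie at the upper edge of the cloud and *Phgdh* lies within it.

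Most of these genes were high in the same libraries. Control 1 and Nr3c1Foxp3-Cre 2 were the 2 highest libraries for 6 of the 10 genes (*Ddit3*, *Asns*, *Chac1*, *Trib3*, *Shmt2* and *Mthfd2*), as they were for 15.3% of all genes, a pattern chosen after the values were seen. Control 1 exceeded the mean of the other controls by 1.45 log2 units for *Chac1*, 1.14 for *Trib3* and 0.88 for *Asns*. Nr3c1Foxp3-Cre 2 exceeded the mean of the other Nr3c1Foxp3-Cre libraries by 1.55, 1.08 and 0.76 for the same genes. For *Atf4* these contrasts were 0.01 and -0.11. *Atf4* mRNA was thus not raised in the libraries in which *Chac1*, *Trib3* and *Asns* were high. For *Phgdh* and *Psat1* control 1 stood 0.21 and 0.39 above the other controls, but Nr3c1Foxp3-Cre 2 differed from the rest of its group by -0.03 and 0.007.

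Melanoma cell markers were also high in control 1 and Nr3c1Foxp3-Cre 2. The summed log2 CPM of the 9 markers, which include *Pmel*, *Mlana* and *Tyr*, was 13.58, 12.16 and 13.15 in control libraries 1 to 3 and 13.06, 13.61 and 12.31 in Nr3c1Foxp3-Cre libraries 1 to 3. Control 1 and Nr3c1Foxp3-Cre 2 had the highest sums, and 7 of the 9 markers were highest in these libraries. *Foxp3* was lowest there, at 3.39 in control 1 and 3.50 in Nr3c1Foxp3-Cre 2, and control 1 and Nr3c1Foxp3-Cre 2 were the highest pair for 0 of 12 Treg markers and 0 of 7 T cell markers. The match with melanoma markers was incomplete, since control 3 had a larger marker sum than 3 other libraries while *Asns*, *Trib3* and *Chac1* were low there, at 7.20, 4.76 and 2.26. With the mean of the melanoma markers as a covariate, chosen after the data were seen, the residual SD went from 0.317 to 0.116 for *Mthfd2*, from 0.512 to 0.272 for *Asns*, from 0.672 to 0.425 for *Trib3* and from 0.884 to 0.623 for *Chac1*. It went from 0.217 to 0.175 for *Shmt2* and from 0.360 to 0.346 for *Ddit3*, which shared the pattern. Among genes that did not, the residual SD went from 0.186 to 0.215 for *Atf4* and from 0.210 to 0.243 for *Sesn2*. It went from 0.163 to 0.167 for *Psat1* and from 0.103 to 0.091 for *Phgdh*. The part of tumor cell RNA in the levels of these genes was not tested.

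**Figure D4:**
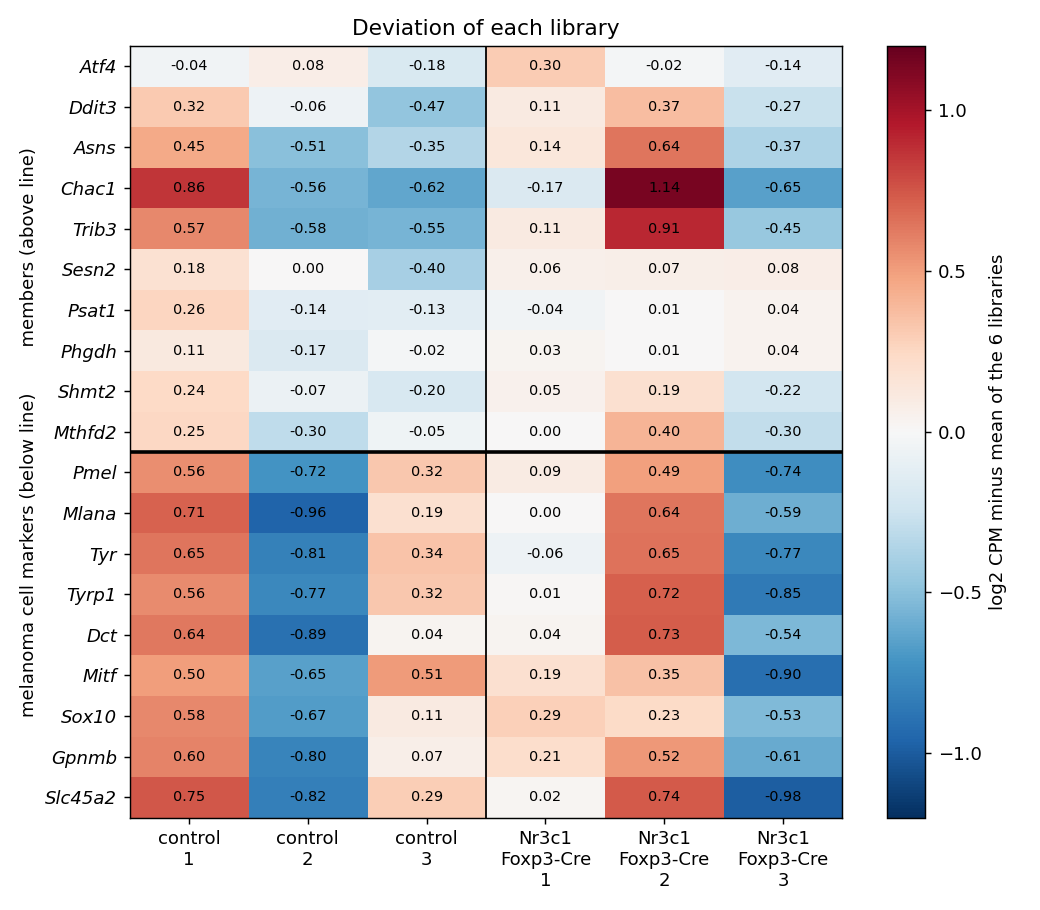
Deviation of each library from the mean of the 6 libraries (color and printed value, log2 CPM) for the 10 genes above the line and the 9 melanoma markers below it, with libraries as columns. *Chac1*, *Trib3* and *Asns* are red in control 1 and Nr3c1Foxp3-Cre 2, as the melanoma markers are, while in control 3 the 3 genes are blue and the markers red.

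Markers of other cells were weaker. Fibroblast and endothelial markers, of which 6 of 7 were measured, including *Col1a1*, *Col1a2* and *Col3a1*, summed to 238 to 504 CPM in the controls and to 139 to 225 CPM in Nr3c1Foxp3-Cre, without overlap. Of these 6 markers, 5 were lower in Nr3c1Foxp3-Cre and 1 was higher. The groups did not overlap for 2 of the lower markers and for the higher one, against 7.41% of all genes. The mean of the 6 markers moved with genotype, at 4.65 to 5.44 log2 CPM in the controls and 3.59 to 4.14 in Nr3c1Foxp3-Cre. With this mean as a covariate, also chosen after the data were seen, the log2 fold changes of *Atf4*, *Ddit3* and *Shmt2* were -0.29, -0.073 and -0.030, and 0 of the 10 genes passed an adjusted or an unadjusted p of 0.05 by limma. Macrophage and dendritic cell markers, with 10 of 11 measured, summed to 558, 372 and 444 CPM in control libraries 1 to 3 and to 274, 541 and 309 CPM in Nr3c1Foxp3-Cre libraries 1 to 3. This sum, too, was highest in control 1 and Nr3c1Foxp3-Cre 2, and 4 of the 10 markers had this pair as the highest, against 15.3% of all genes. The log2 fold change was below 0 for 9 of the 10 markers and above 0 for 1, with a median of -0.40. Their mean log2 CPM did not overlap between genotypes, at 4.36, 3.81 and 4.13 in the controls and 3.59, 3.72 and 3.55 in Nr3c1Foxp3-Cre. Of CD8 and NK cell markers 1 of 6 had a row and of neutrophil and red cell markers 2 of 4, with sums of at most 15.6 and 98.8 CPM in any library, and *Cd8a* and *S100a8* had none. The part of these cells in the levels of the 10 genes was not tested.

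Genes around the pathway did not pass the adjusted test either, by limma 0 of the genes measured in any of 9 lists, which share some genes. Among the kinases, phosphatase subunits and initiation factors of the eIF2α step, 16 of 16 were measured, 8 had a fold change above 0 and 8 below, and the median was 0.003. By limma 1 of the 16 had an unadjusted p under 0.05, against 3.26% of all genes. The 1 gene was *Ppp1r15a*, which encodes GADD34, the subunit that directs dephosphorylation of eIF2α. *Ppp1r15a* was measured at 9.03, 9.29 and 9.15 log2 CPM in the controls and at 9.40, 9.53 and 9.40 in Nr3c1Foxp3-Cre, without overlap (0.29 ± 0.10, limma adjusted p = 1.0). Of ATF and C/EBP partner factors 9 of 12 were measured, 3 above 0 and 6 below. *Cebpb*, a dimer partner of ATF4, was at 6.74, 7.14 and 7.05 in the controls and at 6.56, 6.58 and 6.64 in Nr3c1Foxp3-Cre (-0.38 ± 0.12, limma adjusted p = 1.0), and *Jdp2*, a bZIP repressor, differed by -0.25 ± 0.16, both without overlap.

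Of the other ATF4 targets 17 of 20 were measured, 14 with a fold change above 0 and 3 below, with a median of 0.13 (0.025 without Nr3c1Foxp3-Cre 2 and 0.27 without Nr3c1Foxp3-Cre 3). By limma 2 of the 17 were higher and 1 was lower at an unadjusted p under 0.05, against 3.26% of all genes. Several of these targets behaved like *Chac1* between libraries, named here after their values were seen. *Nupr1*, a stress-induced chromatin protein, was measured at 3.72, 1.73 and 2.23 log2 CPM in the controls and at 3.23, 3.81 and 2.34 in Nr3c1Foxp3-Cre. *Cth*, which encodes cystathionine γ-lyase, was measured at 2.80, 1.06 and 1.48 and at 2.33, 3.20 and 1.84. Both were highest in control 1 and Nr3c1Foxp3-Cre 2, as were 6 of the 17 targets and 9 of the 20 cytosolic aminoacyl-tRNA synthetases, against 15.3% of all genes. The same pair was highest for 9 of 20 ER chaperone and unfolded protein response genes, 4 of 9 mitochondrial stress genes, 5 of 16 genes of the eIF2α step and 4 of 13 mTORC1 inputs, so the pattern extended beyond ATF4 targets. It did not extend to every list. The pair was highest for 3 of 20 other serine, glycine and one-carbon enzymes, 2 of 11 amino acid transporters and 2 of 9 ATF and C/EBP partner factors. Of these synthetases, which charge tRNAs, all 20 were measured, 13 above 0 and 7 below, with a median of 0.05 that ran from -0.019 without Nr3c1Foxp3-Cre 2 to 0.14 without control 1. *Lars*, for leucine, was measured at 7.23, 7.13 and 7.15 log2 CPM in the controls and at 7.63, 7.71 and 7.54 in Nr3c1Foxp3-Cre, without overlap, and its difference of 0.46 ± 0.094 (SE) had a limma adjusted p of 0.390. *Dars*, for aspartate, differed in the other direction, by -0.30 ± 0.099 (limma adjusted p = 1.0), without overlap.

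Amino acid transporters were measured for 11 of 13 genes, 9 above 0 and 2 below, with a median of 0.10 that ran from 0.016 without Nr3c1Foxp3-Cre 1 to 0.25 without Nr3c1Foxp3-Cre 3. The 2 below 0 were low in level. *Slc43a1*, which carries large neutral amino acids, was at 2.06, 2.07 and 1.79 log2 CPM in the controls and at 1.12, 0.70 and 0.63 in Nr3c1Foxp3-Cre, and *Slc36a1*, a lysosomal proton-coupled carrier, was at 2.04, 1.79 and 2.13 and at 1.21, 0.60 and 1.178. Neither gene overlapped between genotypes, as was the case for 7.41% of all genes. Both had an unadjusted p under 0.05 by limma, against 3.26% of all genes, and a limma adjusted p of 1.0. The cystine carrier gene *Slc7a11*, an ATF4 target, had no row in the table.

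The other enzymes of serine, glycine and one-carbon metabolism numbered 20 of 23 measured, 9 above 0 and 11 below, with a median of -0.04. By limma 1 of the 20 was higher and 0 were lower at an unadjusted p under 0.05, against 3.26% of all genes. *Ahcy*, which hydrolyzes S-adenosylhomocysteine, differed by -0.17 ± 0.10, without overlap and not past an unadjusted p of 0.05. *Aldh1l2*, a mitochondrial folate enzyme, was at 4.40, 2.88 and 2.803 log2 CPM in the controls and at 3.96, 4.50 and 3.47 in Nr3c1Foxp3-Cre, again highest in control 1 and Nr3c1Foxp3-Cre 2, and was named after its values were seen. That pair was highest for only 3 of the 20 measured genes of this list, against 15.3% of all genes. Of ER chaperones and unfolded protein response genes 20 of 20 were measured, 10 above 0 and 10 below, with a median of 0.01. *Sel1l*, a subunit of the complex that exports misfolded proteins from the ER, differed by 0.31 ± 0.091 and *Atf6*, an ER stress sensor, by 0.17 ± 0.12, each without overlap. Mitochondrial stress genes, 9 of 10 measured, had a median of 0.02, and mTORC1 inputs around *Sesn2*, 13 of 13 measured, had one of 0.04. *Dele1*, which relays mitochondrial stress, differed by -0.30 ± 0.20 and *Sesn1*, a paralog of *Sesn2*, by 0.23 ± 0.12, each without overlap.

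**Figure D5:**
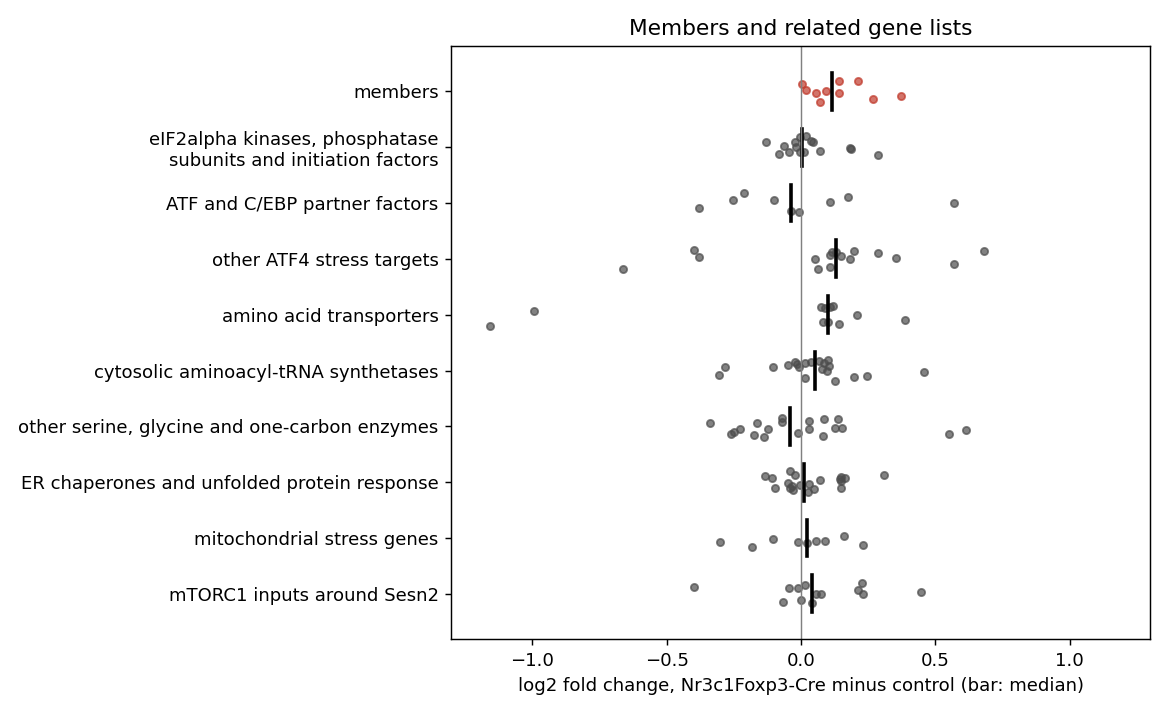
Log2 fold change (x axis, Nr3c1Foxp3-Cre minus control) of the 10 genes (the row of members, in red) and of each measured gene in the 9 lists around the pathway (rows, in grey), with points for genes and bars for medians. The axis leaves out 1 gene. The median is 0.12 for the 10 genes, 0.13 for other ATF4 targets and -0.04 for other serine and one-carbon enzymes.

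All 10 genes had a fold change above 0, compared with 49.5% of all genes, but without control 2 or without control 3 only 5 of the 10 did, and without Nr3c1Foxp3-Cre 2 only 6. Without control 1, *Asns* and *Trib3* had an unadjusted p under 0.05 by limma, at 0.0416 and 0.0435 with adjusted p of 1.0, and 4 genes, *Trib3*, *Sesn2*, *Psat1* and *Phgdh*, did not overlap between genotypes. In the same comparison of 2 against 3, 3.18% of all genes had an unadjusted p under 0.05 and 15.8% did not overlap.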

How the data were processed

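Bulk RNA-Seq was analysed for 3 control and 3 Nr3c1Foxp3-Cre libraries, grouped by the genotype in the labels. According to its methods the study used Cutadapt for trimming, STAR for alignment to mm10 and RSEM with GENCODE M21 for gene counts, after which low genes were filtered and the libraries were quantile normalized. The deposited values are log2 CPM made by the authors in this way, and once unlogged every library totals 999633 CPM. Counts and depth cannot be recovered from them, so no counting interval is given and precision rests on the number of libraries.

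The whole table of 12153 genes was fitted by limma 3.58.1 under R 4.3.3 (lmFit, eBayes with a mean-variance trend, genotype only), with Benjamini-Hochberg adjustment over all genes at 0.05. The fit was tested on simulated data. An exact permutation test, two-sided, was added for single values. Quantile normalization forces libraries to one distribution, so only relative levels were compared. Exon lengths and positions came from GENCODE M21, and promoter windows from RefSeq (GRCm38.p6).

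The 10 genes, the lists and the tests were chosen with earlier results of these data known. Every one of the 10 genes was named, as were *Nr3c1*, *Tsc22d3*, the leading markers of cell lists and, from each of the 9 lists, up to 2 genes with the largest fold change among those that did not overlap, apart from items not reported here. Alternatives were eBayes without a trend or robust, vooma or sample quality weights, a minimum mean log2 of 1, a floor at 0, log2(CPM + 1), cyclic loess, median centering, a block for the replicate number, and omission of each library in turn. The marker covariates were added after the data were seen.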

Additional observations from a re-analysis of the deposited data

How the results depend on the processing

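None of the 10 genes passed an adjusted p of 0.05 by limma under any of 18 alternatives. The lowest adjusted p was 0.389, for *Sesn2* under sample quality weights. In that fit *Sesn2* alone of the 10 had an unadjusted p under 0.05 by limma, against 11.3% of all genes. Control 3 received a weight of 7.47 against 0.520 to 0.860 for the others. Those weights moved the median of the 10 genes to 0.30, *Ddit3* to 0.44, *Sesn2* to 0.41 and *Chac1* to 0.54, and the fibroblast and endothelial covariate also gave a median of 0.30. *Asns* and *Trib3* were above 0 under all 18, but were near 0 without Nr3c1Foxp3-Cre 2. Leaving out 1 library at a time moved the log2 fold change from 0.017 to 0.56 for *Asns*, 0.013 to 0.75 for *Trib3*, -0.034 to 0.18 for *Atf4*, -0.058 to 0.34 for *Ddit3*, -0.30 to 0.70 for *Chac1*, -0.024 to 0.27 for *Sesn2*, -0.063 to 0.13 for *Psat1*, -0.019 to 0.13 for *Phgdh*, -0.076 to 0.14 for *Shmt2* and -0.11 to 0.24 for *Mthfd2*. It left 5 to 10 of the 10 genes above 0, 0 to 2 higher at an unadjusted p under 0.05 and 0 to 4 without overlap, while the shares of all genes in these fits were 2.39% to 5.78% at that p and 13.2% to 20.0% without overlap. It moved the median from 0.00033 to 0.24 for the 10 genes, from -0.028 to 0.054 for the eIF2α list and from -0.066 to 0.048 for other serine and one-carbon enzymes. With the fibroblast and endothelial marker mean as a covariate, *Atf4*, *Ddit3* and *Shmt2* were at -0.29, -0.073 and -0.030.

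Over all genes, 1 was called higher and 6 lower. Without adjustment the counts were 196 and 200. With adjustment they were 2 higher with vooma weights, 7 and 12 with sample quality weights, 4 and 14 with the melanoma marker covariate, 0 to 3 and 0 to 5 with 1 library left out, and 0 and 0 by limma without a trend (469 at an unadjusted p under 0.05) or with the fibroblast and endothelial covariate (323). The cause was not tested. Same-numbered libraries did not deviate together (correlations of -0.117, -0.329 and -0.0246), and 0 of 3 control libraries correlated best with their own number. These correlations thus showed no pairing by number, but with 3 libraries per group they cannot exclude it. With the replicate number as a block, limma called 0 genes up and 0 down (275 at an unadjusted p under 0.05), *Tsc22d3* included (adjusted p = 0.137), and 0 of the 10 genes.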
